A study of Mus musculus with 20 samples.

Results

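The 5 batch 4 libraries of neonatal mouse neural stem cells and neural progenitors were compared with the 10 libraries of batches 1 and 2, out of 20 libraries in all. Members were chosen by the batch number in the sample labels alone, so that each of the 5 sorted populations gave 1 library to batch 4, 1 to batch 1 and 1 to batch 2, and the comparison was paired by population. The cells came from the periventricular zone of Swiss Webster pups at postnatal day 5, with the males and females of a litter pooled, and were sorted with antibodies to CD133, LeX, CD140a and NG2. The neural stem cells (NSC) carried CD133 and LeX but neither NG2 nor CD140a, and the progenitor populations were BNAP/GRP1 (neuronal-astrocytic or glial-restricted), GRP2/MP3 (glial-restricted or multipotential), GRP3 (glial-restricted) and PFMP (responsive to platelet-derived and fibroblast growth factors). RNA was amplified by its polyA tail before sequencing in every batch as far as the methods tell, and no animal was treated. Libraries carry the population name followed by the batch number (NSC 4 for batch 4), and 5 batch 4 values given without names stand in the order NSC, BNAP/GRP1 and GRP2/MP3, then GRP3 and PFMP.

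Batch 4 is a single batch. A difference that all 5 of its libraries share was repeated over populations but not over batches, and the labels do not say what besides the number set a batch apart. The p-values below therefore measure how alike the 5 populations moved, and batch 4 as a preparation cannot be told apart from batch 4 as a set of animals. In sorted bulk RNA, fewer cells of a type and less RNA per cell cannot be told apart either.

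Several kinds of transcript serve below as measures of a library rather than of its cells. Olfactory receptors (Olfr) and vomeronasal receptors (Vmn1r, Vmn2r) are large families of odour and pheromone receptors that sensory neurons of the nose express, and most brain cells do not use them. Gm10800 and Gm10801 are predicted genes made of satellite repeats. Mitochondrial tRNAs and microRNAs are short structured RNAs without a polyA tail in their mature form, whereas ribosomal proteins and most subunits of the respiratory chain come from short, abundant, polyadenylated mRNAs.

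The transcripts on which the results turn first are shown here. The Gm10800 gene lies at chr2:98666547-98667301 on the minus strand (GRCm38), and the 240 bases below, chr2:98666801-98667040, are shown because its repeat can be read in them. The capitals mark TTTTCAGTTTTC, searched on the transcript strand and its complement, of which the 660-base Gm10800 transcript holds 7 copies and the 504-base Gm10801 transcript 5. Of 141767 transcripts of the annotation, 211 (0.149%) held it at all and 20 held at least 5 copies.
Gm10800: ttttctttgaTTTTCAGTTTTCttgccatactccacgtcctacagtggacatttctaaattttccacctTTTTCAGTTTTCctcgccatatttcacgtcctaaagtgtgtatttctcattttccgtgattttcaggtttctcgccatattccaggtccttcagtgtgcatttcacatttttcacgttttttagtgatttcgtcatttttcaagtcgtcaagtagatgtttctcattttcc
Next come the mitochondrial glutamine tRNA mt-Tq (chrM:3772-3842, minus strand, with the 3 bases it shares with a neighbouring mitochondrial gene in capitals) and the proline tRNA mt-Tp (chrM:15356-15422, minus strand), 2 of the largest rises of batch 4.
mt-Tq: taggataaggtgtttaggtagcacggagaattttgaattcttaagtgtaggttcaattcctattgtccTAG
mt-Tp: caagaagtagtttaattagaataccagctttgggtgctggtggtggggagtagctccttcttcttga
The microRNA genes among the largest rises (Mir8114, Mir8112) and falls (Mir682, Mir678) gave the following mature microRNAs in RefSeq (GRCm38.p6), with the seed, bases 2 to 8, in capitals. No 2 of the 4 shared a seed.
mmu-miR-8114: uCACCCAUcuccucuccgccu
mmu-miR-8112: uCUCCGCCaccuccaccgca
mmu-miR-682: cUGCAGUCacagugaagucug
mmu-miR-678: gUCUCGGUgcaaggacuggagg

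The libraries were read as RPKM, read numbers divided by the length of the gene and the size of the library, of 45705 genes. The number of genes above 0 was 22006 to 31999 in batches 1 and 2. In batch 4 it was 37856 in NSC 4, 24102 in PFMP 4, 39689 in GRP3 4, 38168 in GRP2/MP3 4 and 38191 in BNAP/GRP1 4. All batch 4 libraries but PFMP 4 thus lay above all 10 others, and PFMP 4 lay within their range. Per population, batch 4 exceeded the mean of the other batches by 9040 genes on average (exact permutation test of the batch 4 label within populations, two-sided, p = 0.00823), with 4 of 5 populations higher. Read totals were not in the table, and the gene length behind the RPKM was not stated, so that absolute depth could not be given. Relative depth could. The value that 1 read gives to a small nuclear RNA gene, read from 409 such genes of equal length, was 76.1 RPKM in BNAP/GRP1 4, 3.05 in PFMP 4 and 10.4 to 19.1 in the other batch 4 libraries, against 3.00 to 25.5 in batches 1 and 2, so that BNAP/GRP1 4 was the shallowest of the 15 libraries in depth per RPKM.

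The receptor families separated 4 batch 4 libraries from the rest. Over the 1586 Olfr, Vmn1r and Vmn2r genes, the mean RPKM was 0.0674 to 0.732 in batches 1 and 2, and 1.46 in NSC 4, 0.00536 in PFMP 4, 1.66 in GRP3 4, 0.769 in GRP2/MP3 4 and 8.03 in BNAP/GRP1 4. The signal was spread over nearly every receptor gene in those 4 libraries, since 97.7 to 98.4% of the receptor genes were above 0 there, against 12.6 to 60.8% in batches 1 and 2 and 17.0% in PFMP 4. The median receptor gene was at 0.695 RPKM in GRP2/MP3 4, 1.29 in NSC 4, 1.55 in GRP3 4 and 7.63 in BNAP/GRP1 4. In the library of the same population, the median over all 45705 genes was 0.977, 1.61, 2.02 and 8.30 RPKM, so the receptor genes stood a little under the middle gene of their own library.

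Over the 5 populations the mean receptor level was 1.75 higher in batch 4 on the log2 scale, which did not pass the test (same exact permutation test, two-sided, p = 0.231, higher in 4 of 5 populations; the smallest p it can give is 0.004115). Without PFMP, the population in which batch 4 was lower, the difference was 3.63 (exact permutation, p = 0.01235, the smallest that 81 arrangements can give). With 1 of the other populations left out instead, it was 0.993 to 1.69 (exact permutation, p = 0.333 to 0.543). The value without PFMP thus depends on which population was dropped and is a description. The share of receptor genes at 1 RPKM or more, which weighs breadth rather than height, was 49.8 percentage points higher in batch 4 over all 5 populations (exact permutation, p = 0.01235). The other families that brain cells do not use, such as hair keratin-associated proteins, defensins and milk proteins, gave a log2 difference of 2.22 (exact permutation, p = 0.04115).

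Single receptor genes did not lead the batch 4 level. The receptor genes with the highest mean in batch 4 were the pseudogenes Olfr1169-ps1, at 50.4 RPKM in NSC 4 and 0 in BNAP/GRP1 4 and PFMP 4, Olfr719-ps, at 48.5 RPKM in BNAP/GRP1 4, and Olfr1401-ps1, at 42.2 RPKM in GRP3 4. None of them passed the test between batches, and Olfr1401-ps1 was too low to be tested. In every library of batch 1 the highest receptor gene was the pseudogene Olfr1172-ps1, at 46.5 to 437.7 RPKM. The receptor means of batch 1, 0.106 to 0.562 RPKM, thus rest in part on a single gene. Of the 1586 receptor genes 151 reached the filter of 1 RPKM in at least 5 of 15 libraries, and 136 of these reached 1 RPKM in fewer than 5 libraries of batches 1 and 2, so that they were tested only because of their batch 4 values. Their calls are not evidence about the families.

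The satellite transcripts followed the same split. Gm10801 ran from 1671 to 171100 RPKM with a median of 15870 in batches 1 and 2, and was at 106000 RPKM in NSC 4, 759 in PFMP 4, 318100 in GRP3 4, 77560 in GRP2/MP3 4 and 297700 in BNAP/GRP1 4. Each of them but PFMP 4 was above both other libraries of its population, and PFMP 4 was the lowest of all 15 libraries. Gm10800 and Gm10801 together made up 17.0, 33.6, 10.2 and 37.8% of all RPKM in NSC 4, BNAP/GRP1 4, GRP2/MP3 4 and GRP3 4, and 0.123% in PFMP 4, against 0.431 to 11.4% in batches 1 and 2. The log2 difference of their sum was 1.62 over 5 populations (exact permutation, p = 0.317) and 3.58 without PFMP (exact permutation, p = 0.02469). With 1 of the other populations left out instead, it was 0.871 to 1.26 (exact permutation, p = 0.506 to 0.667). PFMP was again the population that went the other way, so the value without it is a description.

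**Figure D1:**
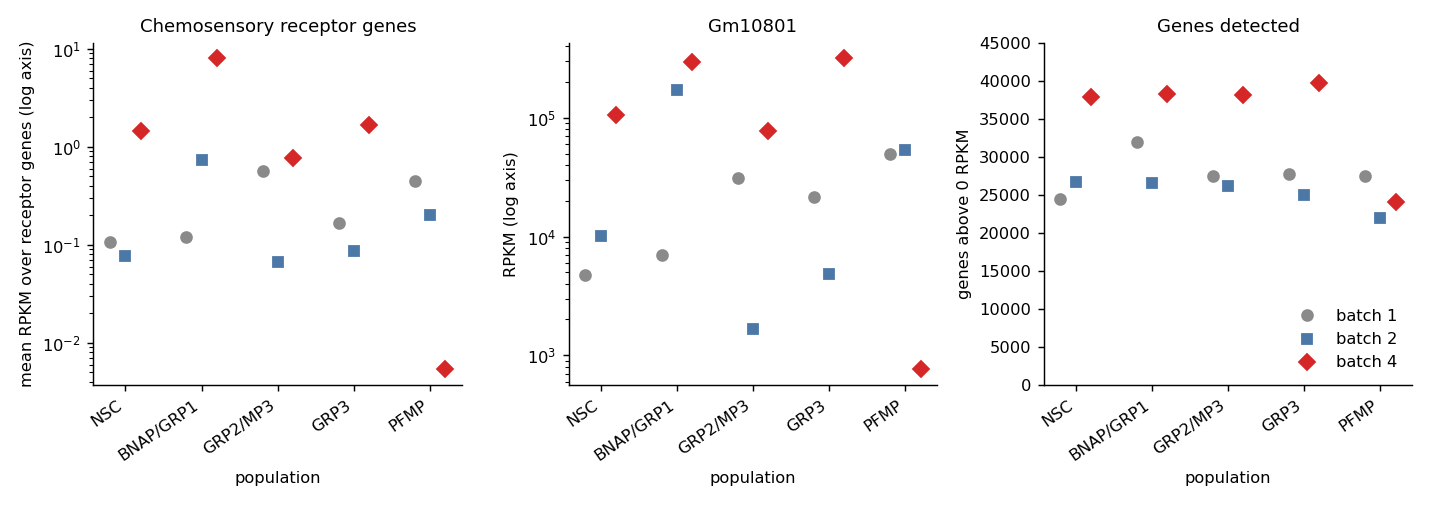
Mean RPKM of the 1586 receptor genes (left, log axis), RPKM of the satellite transcript Gm10801 (middle, log axis) and number of genes above 0 RPKM (right) in each library, by population on the horizontal axis, with 1 point per library and batches 1, 2 and 4 as circles, squares and diamonds. The batch 4 libraries other than PFMP 4 lie above both other libraries of their population in each panel, and PFMP 4, at a receptor mean of 0.00536 and a Gm10801 value of 759 RPKM, lies lowest of all in the first and second panels.

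Genes were then tested one by one with limma on log2(RPKM + 1), with the population as a block. Of 21495 genes tested, 5796 (27%) differed between batch 4 and batches 1 and 2 at an adjusted p under 0.05 (limma with Benjamini-Hochberg adjustment), 4275 of them higher (19.9%) and 1521 lower (7.08%). The split depended on the scaling. It was 2794 higher and 2385 lower after median-of-ratios scaling, 1636 and 3501 after quantile normalization, and 2222 and 2490 once the receptor mean of each library was subtracted from its values. The median log2 difference over all tested genes was 0.50 as deposited and 0.13, -0.33 and -0.11 under these scalings, and differences of single genes below are to be read against it. Of the 4275 rises, 2616 were of genes that reached 1 RPKM in fewer than 5 libraries of batches 1 and 2. Such a gene entered the test only with its batch 4 values, a filter that favours a rise, so its values are given below without a p as support. The other 1659 rises did not need batch 4 to be tested.

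To set aside genes within the range of the receptor families, a rise was counted as above background when the gene exceeded, in all 5 batch 4 libraries, the 99th percentile of the receptor genes of the same library (0.0485 RPKM in PFMP 4, 2.20 to 4.24 in GRP2/MP3 4, NSC 4 and GRP3 4, and 18.8 in BNAP/GRP1 4), and a fall when it did so in all 10 libraries of batches 1 and 2 (0.499 to 13.3). This kept 812 of the 4275 rises (3.78% of genes tested) and 1042 of the 1521 falls (4.85%). Most rises were thus within the range of the receptor genes in at least 1 batch 4 library, and most falls were of genes above that bar in all 10 libraries of batches 1 and 2. Where the bar was the highest single receptor gene, 81 rises and 177 falls remained. Without BNAP/GRP1 4, whose bar is the highest, 1432 rises were above background.

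The batch 4 difference held against each of the other batches. There were 2475 genes higher and 1004 lower against batch 1 (11.5% and 4.67% of genes tested), and 1964 higher and 794 lower against batch 2 (9.14% and 3.69%). Against both at once, 1664 genes were higher and 689 lower. These comparisons share the 5 batch 4 libraries. Batch 2 against batch 1 gave 0 genes with limma, with 153 at an unadjusted p under 0.05. Batch 4 libraries were also less like the others as a whole: over genes tested, Pearson's r of log2 values between the batch 1 and batch 2 library of a population was 0.810 to 0.954 (5 pairs), and between a batch 4 library and the batch 1 or 2 library of its population 0.324 to 0.822 (10 pairs). Both figures describe these libraries and carry no test.

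Among the genes past the threshold, above background and changed the same way in all 10 pairings of a batch 4 library with a batch 1 or 2 library of its population, 500 rose and 693 fell; without the demand on the level, 2113 genes tested were higher (9.83%) and 890 lower (4.14%) in all 10 pairings. Predicted Gm and Rik names were counted (111 and 114 of them) but are not named. The 10 largest named rises were mt-Tq, Mir8114, mt-Tp, mt-Tf, AC113302.1, Mir8112, Zfp57, Ncan, RP24-141D20.1 and mt-Tl1. The 10 largest named falls were Mir682, Rpl31-ps8, mmu-mir-684-1, Mir678, RP23-316M11.8, Rps12-ps3, Rpl38-ps2, Mir8097, RP23-263B18.4 and Rpl39. For these genes, and for those named later from the same order, the same direction in every population was set by the choice. Groups without overlap were favoured by it and are no separate result.

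Zfp57 and Ncan were the protein-coding genes among the leading rises. Zfp57 encodes a zinc finger protein that maintains methylation at imprinted loci. It ran from 0 to 4.17 RPKM with a median of 0.257 in batches 1 and 2, and was at 63.8 RPKM in NSC 4, 317 in PFMP 4, 489 in GRP3 4, 244 in GRP2/MP3 4 and 59.7 in BNAP/GRP1 4. The groups did not overlap, and the log2 difference was 6.86 ± 0.52 (SE). Zfp57 reached the filter only with batch 4.

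Ncan encodes neurocan, a chondroitin sulfate proteoglycan of the brain's extracellular matrix. It ran from 1.41 to 53.5 RPKM with a median of 17.8 in batches 1 and 2, and was at 4181 RPKM in NSC 4, 3331 in PFMP 4, 1697 in GRP3 4, 2540.0 in GRP2/MP3 4 and 159 in BNAP/GRP1 4. Every batch 4 library was above all 10 others, BNAP/GRP1 4 by the least, and the log2 difference was 6.55 ± 0.64 (limma, adjusted p = 6.879e-06).

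The next protein-coding genes in the same order, looked up after the values were seen, were Sfxn5, Tspan12, Ado, Dfna5, Nmt2 and Sp8. Sfxn5, a mitochondrial sideroflexin, was at 2.57 to 19.8 RPKM in batches 1 and 2 and at 1501, 51.0, 1341, 411 and 1083 RPKM in NSC 4, BNAP/GRP1 4 and GRP2/MP3 4, then GRP3 4 and PFMP 4. Tspan12, a tetraspanin of the Norrin receptor complex, was at 1.59 to 53.6 RPKM in batches 1 and 2 and at 133 to 1958 RPKM in batch 4. Both had groups without overlap, which the choice favoured, and in both the BNAP/GRP1 library was the lowest of batch 4. The log2 differences of the 6 genes ran from 5.77 for Sfxn5 through 5.34 (Tspan12), 5.30 (Ado, a thiol dioxygenase), 5.28 (Dfna5, a gasdermin) and 5.23 (Nmt2, an N-myristoyltransferase) to 5.22 for Sp8, all with adjusted p of 6.167e-05 or below in limma.

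Sp8, a transcription factor of olfactory bulb interneuron precursors, was also the largest rise of the neuroblast list. It was at 0.265 to 17.3 RPKM in batches 1 and 2 and at 111, 22.3, 408, 92.0 and 256 RPKM in NSC 4, BNAP/GRP1 4 and GRP2/MP3 4, then GRP3 4 and PFMP 4. BNAP/GRP1, where it was highest in batches 1 and 2, showed the smallest rise. Sp8 does not stand for its list. Of 15 neuroblast genes tested 3 were higher (20%, near the 19.9% of all genes tested), 1 was lower and 11 were not called. The median of the list was 0.59, and -0.12 after quantile normalization.

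Short structured RNAs led both directions. mt-Tq was listed at 0 in all 10 libraries of batches 1 and 2 and was at 458 RPKM in NSC 4, 1293 in PFMP 4, 387 in GRP3 4, 1223 in GRP2/MP3 4 and 771 in BNAP/GRP1 4. It was tested only because of batch 4. Reads were thus counted to the glutamine tRNA gene whose sequence is printed above in every batch 4 library, PFMP 4 included. Reads of the tRNA itself and of a longer RNA over the same bases cannot be told apart, and the strand setting was not stated. Of 22 mitochondrial tRNA genes, a list added after the values were seen, 20 were tested, 16 rose and 0 fell. As 14 of the 16, mt-Tq among them, reached the filter only with batch 4, this count is a description. In limma the 4 not called had adjusted p of 0.0582 to 0.152. Mitochondrial mRNAs did not follow: of 13 protein-coding genes of the mitochondrial genome 0 rose and 2 fell, with a median of -0.87, which was 0.28 after quantile normalization.

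mt-Nd3 and mt-Co2, subunits of respiratory complexes I and IV, were the pair that fell. mt-Nd3 ran from 8893 to 57980 RPKM in batches 1 and 2 and was at 332 RPKM in NSC 4, 555 in PFMP 4, 336 in GRP3 4, 753 in GRP2/MP3 4 and 5238 in BNAP/GRP1 4. All 5 lay below the lowest of the others, and the log2 difference was -4.69 ± 0.68 (limma, adjusted p = 0.0002157). For mt-Co2 it was -3.67 ± 0.78 (adjusted p = 0.003675).

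Mir8114 and Mir8112 were listed at 0 in all 10 libraries of batches 1 and 2. Mir8114 was at 831 RPKM in NSC 4, 1062 in PFMP 4, 64.9 in GRP3 4, 769.7 in GRP2/MP3 4 and 70.3 in BNAP/GRP1 4. Mir8112 was at 63.6, 254, 260.0, 54.7 and 115 RPKM. Both were therefore above 0 in each batch 4 library and in none of batches 1 and 2, and were tested only because of batch 4. The Mir8114 value of BNAP/GRP1 4, 70.3 RPKM, was near the 76.1 RPKM that 1 read gave to a small nuclear RNA gene there. Its presence in that library may thus rest on about 1 read.

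Mir678 moved the other way. It ran from 232 to 3053 RPKM with a median of 969 in batches 1 and 2, was listed at 0 in NSC 4, BNAP/GRP1 4 and GRP3 4, and was at 35.7 RPKM in GRP2/MP3 4 and 20.02 in PFMP 4. Mir8097, with no entry in the RefSeq table, went from 102 to 922 RPKM down to 0 to 38.1. Each batch 4 value lay below each value of batches 1 and 2, with log2 differences of -7.89 ± 0.85 and -6.56 ± 0.85 (limma, adjusted p = 1.651e-05 and 7.755e-05).

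These microRNA genes lie inside exons of mRNAs, so reads of the microRNA precursor and of its host cannot be told apart, and the position in the host differed between the rises and the falls. Mir8114 (chr1:153899926-153900036) sits with its centre at base 38 of the 2792-base transcript of Glul, the glutamine synthetase gene, and Mir8112 (chr6:71271671-71271801) at base 60 of the 1687 bases of Krcc1, on the plus strand like their hosts. Mir678 (chr10:76207326-76207409, minus strand) lies 92.9% along Prmt2, an arginine methyltransferase gene, and Mir8097 (chr15:36240046-36240164, minus strand) 96.0% along Rnf19a, a ubiquitin ligase gene. The hosts did not follow them: the log2 difference was -0.63 for Glul, -1.94 for Krcc1, 0.38 for Prmt2 and 0.75 for Rnf19a, of which that of Krcc1 alone passed the test (limma, adjusted p = 0.03599).

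Among 829 tested genes of short RNA classes, 16 overlapped an exon of an mRNA on the same strand by at least 50% of their length, a set looked up after the values were seen. Of the 7 centred in the first 50% of the host, 3 rose and 1 fell, with a median log2 difference of 1.99. Of the 9 in the last 50%, 1 rose and 4 fell, with a median of -2.58, and of the 6 in the last 10%, 0 rose and 4 fell. Every rise of this set was of a gene that reached 1 RPKM in fewer than 5 libraries of batches 1 and 2. Such a gene was thus tested only because of batch 4, which favours a rise. Over all genes tested 19.9% were higher and 7.08% lower. The counts by position are of few genes and are given as a description with no test.

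**Figure D2:**
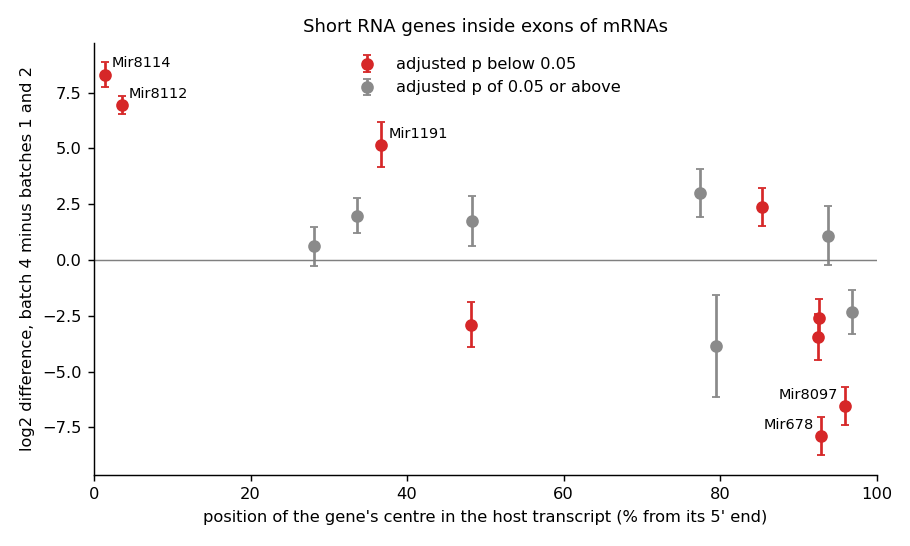
Log2 difference of batch 4 against batches 1 and 2 for the 16 short RNA genes inside mRNA exons (vertical axis, bars are the SE of the limma fit), by the position of the gene's centre in the host transcript in percent from its 5' end (horizontal axis), in red where the adjusted p was below 0.05. Mir8114 and Mir8112 at the left end were listed at 0 in batches 1 and 2, so their plotted heights (8.31 and 6.94) depend on the pseudocount of 1 RPKM. The red points above 0 are all of genes tested only because of batch 4. The 6 genes past 90% lie between -7.89 and 1.09.

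Mir682 and mmu-mir-684-1 fell as well, outside the set of microRNA genes found in mRNA exons. Mir682 was at 97.1 to 8321 RPKM in batches 1 and 2 and at 11.75 RPKM in GRP3 4 and was listed at 0 in the other batch 4 libraries. mmu-mir-684-1 was at 2612 to 15000.0 RPKM in batches 1 and 2 and at 0 to 79.5 RPKM in batch 4. The pseudogenes Rpl31-ps8, Rps12-ps3 and Rpl38-ps2 are copies of ribosomal protein genes and can share reads with them, so their falls, by log2 differences of 8.20, 7.61 and 7.49, and those of their parents are not independent. RPKM of genes about as short as a read are scaled by a very small length, and their height is not comparable with that of mRNAs.

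**Figure D3:**
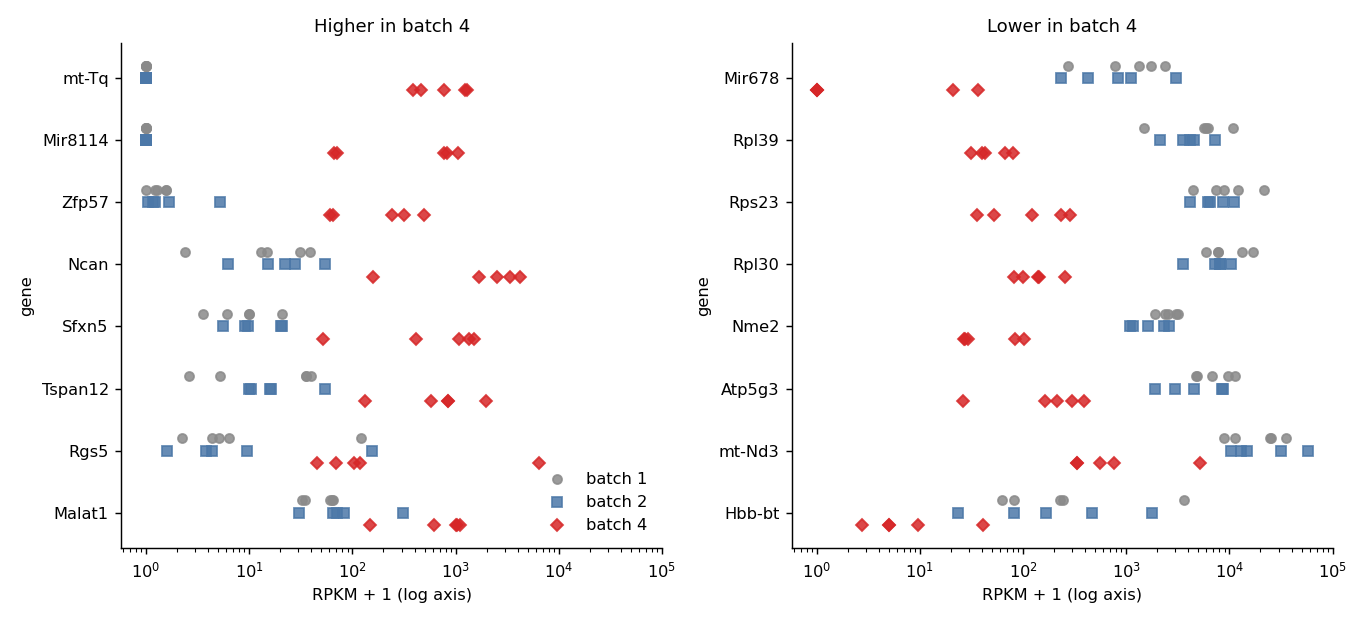
RPKM + 1 (horizontal log axis) of 8 genes higher and 8 genes lower in batch 4, with 1 point per library and batches 1, 2 and 4 as circles, squares and diamonds. The diamonds lie apart from the other points for most genes shown, for example Ncan at 159 to 4181 against 1.41 to 53.5 RPKM and Rpl39 at 30.1 to 79.6 against 1498 to 10730.0 RPKM; in Rgs5, Malat1 and Hbb-bt the ranges overlap across populations.

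Ribosomal protein mRNAs were lower in batch 4. Of 90 ribosomal protein genes measured, 88 were tested, 66 were lower (75%, against 7.08% of all genes tested), 0 were higher and 22 did not pass the test. Their median log2 difference was -2.91, and by population it ran from -2.55 to -2.26 in NSC, GRP2/MP3, GRP3 and PFMP, with -4.85 in BNAP/GRP1. The direction held in every population, and in every scaling tried, with medians of -3.38 to -2.24 across median-of-ratios scaling, quantile normalization and subtraction of the receptor mean.

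Rpl39, which encodes a very short protein of the large subunit, fell most. It ran from 1498 to 10730.0 RPKM with a median of 5116 in batches 1 and 2, and was at 30.1 RPKM in NSC 4, 66.2 in PFMP 4, 38.8 in GRP3 4, 79.6 in GRP2/MP3 4 and 41.5 in BNAP/GRP1 4. No batch 4 value came near the lowest of the others, and the log2 difference was -6.52 ± 0.45 (limma, adjusted p = 2.952e-07). Rps23 and Rpl30, next in order, went from 4194 to 21830 RPKM down to 34.4 to 285 and from 3588 to 16900 RPKM down to 81.3 to 252. Rps28, the most abundant by its mean, went from 2168 to 71610.0 RPKM down to 153 to 598 (-5.41 ± 0.83). These genes are all parts of the same ribosome. Rpl39, Rps23 and Rpl30 were chosen among genes lower in every pairing. Their lying below both other libraries of each population was thus set by the choice and is no separate result. In batch 4 Rps28 was below both other libraries of its population as well.

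The family was not uniform. Rpl35, a large subunit protein, was at 27.3 to 1389 RPKM in batches 1 and 2 and at 1008, 170.0, 3734, 1321 and 3395 RPKM in NSC 4, BNAP/GRP1 4 and GRP2/MP3 4, then GRP3 4 and PFMP 4, a log2 difference of 2.58 ± 0.93 that did not pass the test (limma, adjusted p = 0.05099). It was the highest of the list, and its direction was opposite to that of Rpl39 in 4 of 5 populations. Of 201 tested pseudogenes named as copies of ribosomal protein genes, a list added after the values were seen, 14 were higher and 50 lower, with a median of -0.27.

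The nuclear genes of oxidative phosphorylation, which encode most subunits of the respiratory chain and ATP synthase, split. Of 79 tested, 26 were lower (32.9%, against 7.08%), 7 higher (8.86%, against 19.9%) and 46 not called, with a median of -0.61. After quantile normalization 15 were lower and 10 higher, and after median-of-ratios scaling 27 and 1. Atp5g3, a subunit of the membrane ring of ATP synthase, ran from 1888 to 11300.0 RPKM in batches 1 and 2 and was at 214 RPKM in NSC 4, 296 in PFMP 4, 161 in GRP3 4, 391 in GRP2/MP3 4 and 24.98 in BNAP/GRP1 4. Its log2 difference was -5.14 ± 0.60 (limma, adjusted p = 3.055e-05). Uqcrc1, a core protein of complex III, went the opposite way, from 13.2 to 77.4 RPKM in batches 1 and 2 to 498, 49.0, 543, 135 and 831 RPKM in the batch 4 libraries, which lay above both other libraries of their population in all 5 (3.02 ± 0.55, adjusted p = 0.001339). Without BNAP/GRP1 4 the median of the list was -0.07.

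Genes that are often used as references were no exception. Of 15 housekeeping genes, 2 rose (13.3%, against 19.9% of all genes tested) and 5 fell (33.3%, against 7.08%). Tuba1b, an alpha tubulin, was at 631 to 4146 RPKM in batches 1 and 2 and at 302, 35.2, 200.3, 79.7 and 204 RPKM in batch 4 (log2 difference -3.42 ± 0.48; limma, adjusted p = 0.0001657). Ppia, cyclophilin A, fell by 2.98 on the log2 scale, while Ywhaz, a 14-3-3 protein, was higher by 2.19 (adjusted p = 0.01536; not past the threshold after median-of-ratios scaling or without GRP2/MP3 4). Among 11 heat shock genes the mitochondrial chaperonin Hspe1 fell by 2.69, and the other 10 did not pass the test.

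Transcript length went along with the difference. Among 1877 protein-coding genes with a mean of at least 50 RPKM, 1557 (82.95%) had a principal transcript in the annotation. The median log2 difference was -1.50 for the 96 genes under 600 bases, -0.75 for 340 genes from 600 to under 1000 bases, -0.87 for 592 from 1000 to under 2000, -0.55 for 384 from 2000 to under 4000 and -0.01 for 145 of 4000 or more. Calls followed: 42.7% of the shortest group were lower and 5.21% higher, and 20.7% of the longest were lower and 26.2% higher. Without the ribosomal proteins the medians were -1.14, -0.62, -0.78, -0.55 and -0.00131, in the same order. Across 4 groups of GC content the medians lay between -0.78 and -0.60. The split by length was made after the values were seen and is a description with no test.

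**Figure D4:**
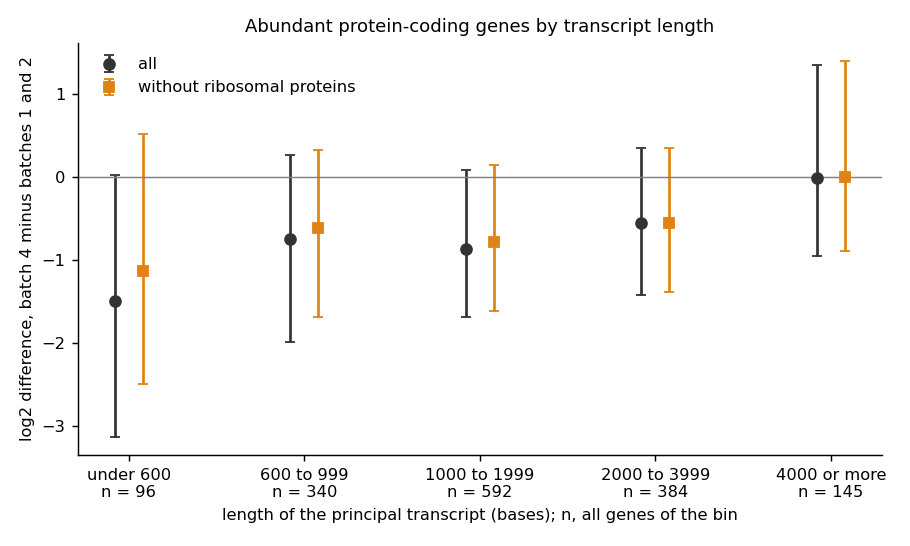
Median log2 difference of batch 4 against batches 1 and 2 (vertical axis; bars run from the first to the third quartile over genes) for abundant protein-coding genes by the length of their principal transcript (horizontal axis), with and without the ribosomal proteins. The medians run from -1.50 in the shortest group to -0.01 in the longest, and the quartiles of all groups overlap.

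Long noncoding RNAs moved gene by gene. Of 8 nuclear RNAs of this kind, 2 rose (Malat1 and Rian), 1 fell (Miat) and 5 were not called. These are 25% and 12.5%, against 19.9% and 7.08% of all genes tested. Malat1, a nuclear speckle RNA, was at 29.5 to 307 RPKM with a median of 63.3 in batches 1 and 2 and at 1018 RPKM in NSC 4, 1110.0 in PFMP 4, 621 in GRP3 4, 1032 in GRP2/MP3 4 and 148 in BNAP/GRP1 4. Each batch 4 value was above both others of its population, with a log2 difference of 3.34 ± 0.49 (limma, adjusted p = 0.0002279). Xist, the RNA that coats the inactive X chromosome, fell in all 5 populations, from 4.59 to 60.6 RPKM in batches 1 and 2 to 1.33, 4.56, 1.98, 2.97 and 0.988 RPKM (-2.99 ± 0.51, adjusted p = 0.000752). The Y-linked gene Kdm5d was higher by 1.34 (adjusted p = 0.01772), within the range of the receptor genes and past the threshold neither after quantile normalization nor after subtraction of the receptor mean. The other 4 sex-linked genes tested, Tsix, Ddx3y, Eif2s3y and Uty, did not pass the test, and the litters were pooled over sexes.

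Astroglial and ependymal genes had the same number of rises among the cell type markers, 7 of 20 each. Of 20 NSC and astroglia genes 7 were higher (35%, against 19.9%), 2 of them above background, and 1 was lower, with a median of 0.70. The rises numbered 4, 3 and 3 after median-of-ratios scaling, quantile normalization and receptor subtraction, with medians of 0.28 to 0.43. They numbered 3 without NSC 4, and 4 without either GRP2/MP3 4 or PFMP 4. Gfap, the intermediate filament of astrocytes, was at 0.0269 to 8.97 RPKM in batches 1 and 2 and at 223 RPKM in NSC 4, 268 in PFMP 4, 8.80 in GRP3 4, 71.7 in GRP2/MP3 4 and 11.9 in BNAP/GRP1 4. It was higher than both other libraries in each population, with a log2 difference of 4.51 ± 0.57, but it reached the filter only with batch 4, and in BNAP/GRP1 4 it stayed under the receptor level. The glycolytic enzyme Aldoc (3.58 ± 0.83, adjusted p = 0.00612) was not higher in BNAP/GRP1, at 37.9 against 55.8 and 44.5 RPKM. Hes5, the Notch target, was the member that fell, by 1.48, a call lost without the batch 4 library of BNAP/GRP1 or of GRP3.

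Of 9 oligodendrocyte genes tested, 5 were higher (55.6%, against 19.9% of all genes tested) and 0 were lower. Of the 5, 4 reached the filter only with batch 4. Mog, Mobp, Mag and Mal, components of myelin or its membrane, were among those higher. With a mean of at least 5 RPKM as the filter, 5 of the genes were tested and 1 was higher. Mog, a glycoprotein on the outer face of myelin, was at 0 to 0.603 RPKM in batches 1 and 2 and at 4.51, 9.33, 3.94, 1.18 and 9.39 RPKM in batch 4, without overlap, within the range of the receptor genes in at least 1 of those libraries. Its gene, at chr17:37010743-37023398 on the minus strand, lies directly beside Zfp57, at chr17:37001163-37010635 on the plus strand, with the 3' ends facing each other, and whether the counting used strand was not stated. The median difference of the list was largest in NSC, at 2.68, where the mean log2 level of the list went from 2.37 and 1.38 to 4.34.

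Genes of oligodendrocyte progenitors (OPC) lay closer together across populations in batch 4. Of 16 OPC genes 1 was higher (Neu4, a sialidase) and 0 lower, and Neu4 was past the threshold neither after quantile normalization or receptor subtraction nor without GRP2/MP3 4. The mean log2 level of the list was 7.27, 7.12 and 5.91 in GRP3 in batches 1, 2 and 4 and 6.55, 7.13 and 5.11 in PFMP, whereas in NSC, BNAP/GRP1 and GRP2/MP3 it went from 2.00 to 3.06 in batches 1 and 2 to between 3.29 and 4.39 in batch 4. In BNAP/GRP1 4 the mean log2 level was 3.74 over all genes tested and 3.01 over the receptor genes. The receptor level was exceeded by 6 of the 16 OPC genes in BNAP/GRP1 4, by 8 in NSC 4 and by 16 in GRP2/MP3 4. The other OPC genes of NSC 4 and BNAP/GRP1 4 were thus within the range of the receptor genes. The median difference of the OPC list was 0.23, and it was below 0 under each of the 3 scalings (-0.25 to -0.06). Olig1, a transcription factor of the lineage, was at 1064 and 896.5 RPKM in GRP3 1 and 2 and 240.2 in GRP3 4, and at 489.6 and 1311 in PFMP 1 and 2 and 109.7 in PFMP 4.

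Microglia genes, from the brain's resident macrophages, went down where they had been high. Their mean log2 level was 9.06, 7.40 and 3.72 in BNAP/GRP1 and 8.85, 8.43 and 5.61 in GRP2/MP3 in batches 1, 2 and 4. In the other 3 populations it was low in batches 1 and 2 and highest in batch 4. In the same order, it was 2.067, 1.831 and 2.869 in NSC, 1.903, 1.652 and 2.094 in GRP3, and 1.464, 2.282 and 3.288 in PFMP. The receptor level was exceeded by 8 of the 16 genes in NSC 4, by 3 in GRP3 4 and by 16 in PFMP 4. In the test over all populations 1 of 16 genes passed the test, Ctss, a lysosomal protease, at 6393 and 695 RPKM in BNAP/GRP1 1 and 2 and 7.08 in BNAP/GRP1 4. C1qb, a complement subunit, was at 1590 and 482 RPKM in BNAP/GRP1 1 and 2 and 8.67 in BNAP/GRP1 4, and at 1930 and 408 RPKM in GRP2/MP3 1 and 2 and 76.7 in GRP2/MP3 4. Ctss lost its call without the batch 4 library of BNAP/GRP1, GRP2/MP3 or GRP3. Of 13 inflammatory genes tested 0 passed the test in limma and 4 had an unadjusted p under 0.05.

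Ependymal genes, which build the motile cilia of cells lining the ventricle, kept their place in NSC. Their mean log2 level was 7.22, 8.62 and 7.41 in NSC in batches 1, 2 and 4, and in the progenitors it went from 0.47 to 1.42 up to between 2.00 and 2.86. The highest of these, 2.86 in BNAP/GRP1 4, was below the 3.01 of the receptor genes there. Of the 22 ependymal genes measured, 21 exceeded the receptor level in PFMP 4 and 12 in GRP2/MP3 4. Only 6 did so in GRP3 4 and 1 in BNAP/GRP1 4. The other ependymal genes of these libraries were within the range of the receptor genes. Of 20 tested 7 were higher (35%), 1 of them above background and 5 tested only because of batch 4, and 0 were called once the population was left out of the model. Rarres2, a secreted chemoattractant precursor, rose most, from 0 to 17.8 RPKM in the progenitors of batches 1 and 2 to 12.2, 436, 32.4 and 34.9 RPKM in BNAP/GRP1 4, GRP2/MP3 4, GRP3 4 and PFMP 4. Foxj1, the master regulator of motile cilia, was at 141 and 352 RPKM in NSC 1 and 2 and 33.1 in NSC 4, without a call.

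**Figure D5:**
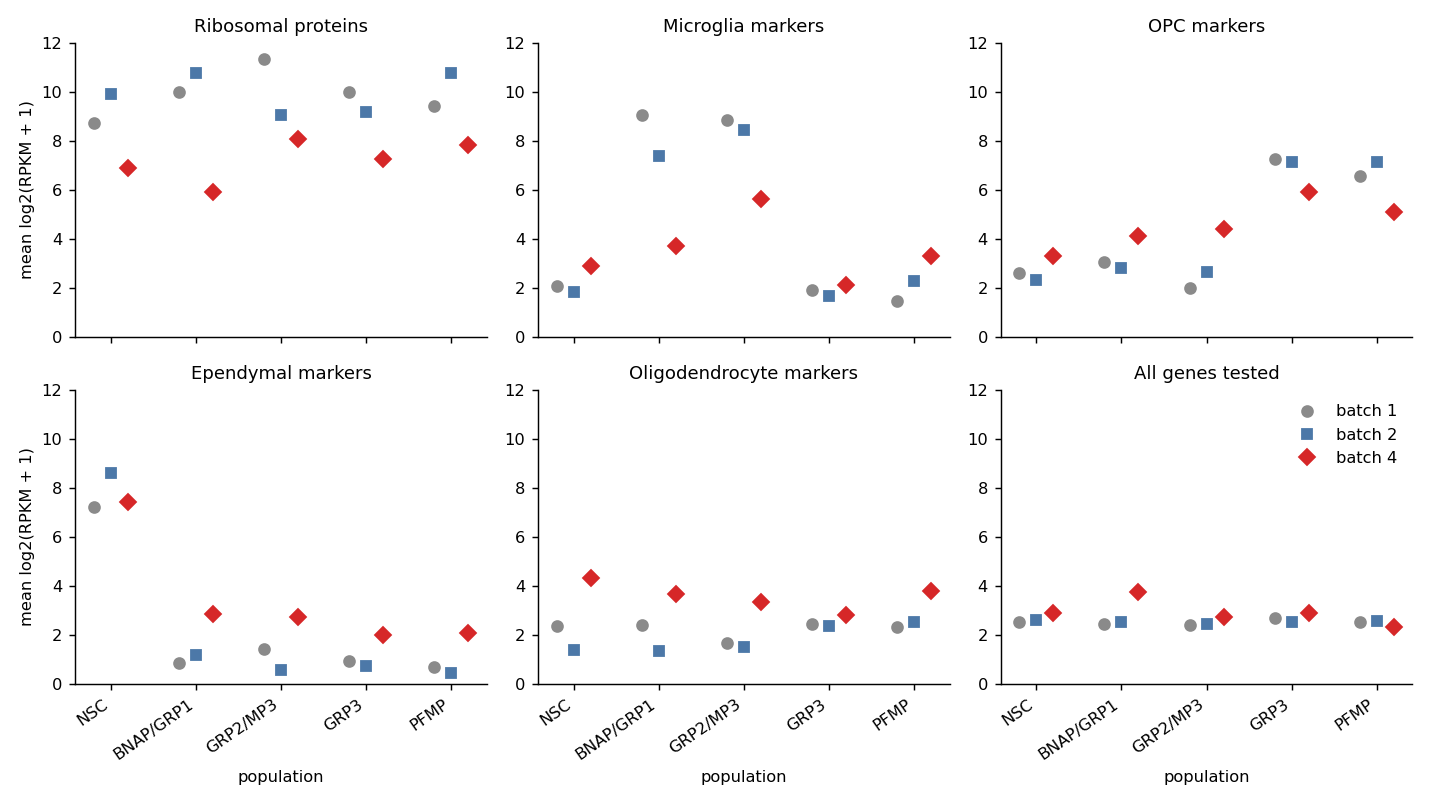
Mean log2(RPKM + 1) of 5 gene lists and of all 21495 genes tested (vertical axes, starting at 0) in each library, by population, with batches 1, 2 and 4 as circles, squares and diamonds. Ribosomal proteins are lowest in batch 4 in each population, microglia markers are lowest in batch 4 in BNAP/GRP1 and GRP2/MP3, and OPC markers in GRP3 and PFMP.

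Of 8 pericyte genes tested 2 were higher (25%, against 19.9% of all genes tested). Rgs5, a regulator of G protein signalling typical of pericytes, was at 120 and 155 RPKM in GRP2/MP3 1 and 2 and at 6493 RPKM in GRP2/MP3 4, and in the other populations it went from 0.599 to 8.45 RPKM up to 44.8 to 119. Every batch 4 library was above both others of its population (4.52 ± 0.39, adjusted p = 2.005e-06), and GRP2/MP3 kept the highest level in each batch. Of 12 endothelial genes tested 0 were called in limma and 0 had an unadjusted p under 0.05, and the largest difference, 0.81 for the transporter gene Slco1a4, was positive in 7 of 10 pairings. Of 9 neuronal genes 2 were higher (22.2%), led by the kinase subunit Camk2a (2.54 ± 0.40). Of 8 fibroblast and meningeal genes 2 were higher (25%, Ptgds and Col1a1), and of 5 choroid plexus genes 2 (40%, Clic6 and Kl). The shares of 22.2% and 25% are near the 19.9% of all genes tested. None of the higher genes of these 3 lists was above background by the rule used here. Of these, Camk2a, Col1a1, Clic6 and Kl reached the filter only with batch 4. Col1a1 lost its call in 9 of 25 alternatives, Ptgds in 7 of 26 and Clic6 in 4 of 25, all 3 of them after quantile normalization.

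Haemoglobin genes were lower. Hbb-bt, a beta globin, was at 22.4 to 3636 RPKM in batches 1 and 2 and at 1.75 RPKM in NSC 4, 4.05 in PFMP 4, 4.00 in GRP3 4, 39.6 in GRP2/MP3 4 and 8.65 in BNAP/GRP1 4. It was below both other libraries in every population (-4.84 ± 0.48, adjusted p = 7.56e-06). Hbb-bs and Hba-a2 also fell, which made 3 of 5 erythroid genes tested (60%, against 7.08% of all genes tested). With no filter 9 were tested, 3 of them higher and 3 lower.

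Of 16 genes of the dividing cell 4 fell (25%, against 7.08%), 1 rose and 11 did not pass the test. Cdk1, the mitotic kinase, was at 38.4 to 148 RPKM in batches 1 and 2 and at 13.5, 11.7, 12.48, 9.97 and 10.98 RPKM in NSC 4, BNAP/GRP1 4 and GRP2/MP3 4, then GRP3 4 and PFMP 4. Groups did not overlap (-2.54 ± 0.38, adjusted p = 0.0002568). Pcna, the sliding clamp of replication, Ube2c, a ubiquitin-conjugating enzyme of mitosis, and the survivin gene Birc5 fell too. Tyms, the thymidylate synthase, rose by 1.65, a call lost after median-of-ratios scaling. Among 14 immediate early genes, Egr1 (-3.26 ± 0.60), Zfp36, Jun and Fos were lower (28.6%, against 7.08%). Btg2 and Arc were higher (14.3%, against 19.9%). Fos lost its call in 11 of 26 alternatives. Of 52 replication-dependent histone genes 12 were higher (23.1%) and 5 lower (9.6%), near the 19.9% and 7.08% of all genes tested. The 12 were all within the range of the receptor genes and tested only because of batch 4.

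The sorting antigens were compared with the gates. Of the 5 genes tested 0 passed the test between batches in limma, and 0 had an unadjusted p under 0.05. Prom1, which encodes CD133, was at 84.2 and 46.1 RPKM in NSC 1 and 2, above every progenitor library of those batches, and at 9.56 RPKM in NSC 4, below the 11.2 to 35.5 RPKM of the batch 4 progenitors. Pdgfra, which encodes CD140a, was at 511.5 and 803 RPKM in GRP3 1 and 2 and 171.5 in GRP3 4, and at 658 and 239.8 in PFMP 1 and 2 and 96.9 in PFMP 4, so that GRP3 and PFMP kept the highest levels of batch 4. Cspg4, which encodes NG2, was at 93.2 and 80.9 RPKM in GRP3 1 and 2 and 11.7 in GRP3 4, and at 23.5 and 145.5 in PFMP 1 and 2 and 4.70 in PFMP 4, against 1.12 to 8.49 RPKM in the other batch 4 libraries. The receptor level was exceeded by 1 of the 5 antigen genes in NSC 4 and by 2 in BNAP/GRP1 4. It was exceeded by 4 each in PFMP 4 and GRP3 4, and by 5 in GRP2/MP3 4. In BNAP/GRP1 4, a Prom1 or Cspg4 value under 18.8 RPKM was within the range of the receptor genes.

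Whether the contrasts between populations had the same size in batch 4 was tested by interaction terms. The NSC minus progenitor difference differed in batch 4 for 0 of 21495 genes (limma; 1050 at an unadjusted p under 0.05, lowest adjusted p = 0.228), but for 60 genes with a pseudocount of 10, 32 after quantile normalization and 28 after receptor subtraction. The difference of GRP3 and PFMP from BNAP/GRP1 and GRP2/MP3 differed for 0 genes (2590 at an unadjusted p under 0.05, 359 larger and 2231 smaller in batch 4; lowest adjusted p = 0.0717), but for 1042 genes without GRP2/MP3 4. With 1 batch 4 library per population these tests rest on few libraries.

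The following genes are examples of large uncalled shifts. Genes were eligible only when above the receptor level in set libraries of 1 side of the contrast. Their height there is thus no separate result. Anxa1, an annexin, was at 432.6 and 314.5 RPKM in NSC 1 and 2 and at 3.91 in NSC 4, and the small membrane protein gene Smim22 at 279 and 636 and at 8.30 RPKM. In the other populations Anxa1 was at 20.4 RPKM or below and Smim22 at 14.2 or below. For the second contrast, Ccl3, a chemokine, was at 573 and 1409 RPKM in BNAP/GRP1 1 and 2 and 15.2 in BNAP/GRP1 4, while in PFMP it went from 1.27 and 5.40 to 46.7 RPKM.

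The 5 libraries moved in part together. The log2 difference from the mean of batches 1 and 2 was taken for each population, and the 10 correlations between populations over the genes tested had a median Pearson's r of 0.49 (0.138 to 0.654). Over the genes above the receptor level in all 10 libraries of batches 1 and 2 the median was 0.69 (0.332 to 0.802). These are correlations across genes, which are not independent replicates and share the composition of the RPKM, and they carry no test.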

How the data were processed

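Cells were sorted from pooled litters in 4 independent experiments, and 20 libraries (5 populations, 4 batches) were sequenced. Per the labels, the authors processed reads with nf-core/rnaseq 3.10, cutadapt 3.4, STAR 2.6.1 and Salmon 1.9.0 on GRCm38 and deposited RPKM values per gene; the annotation release, strand setting and RPKM step were not given in the sources used here, and 26 empty columns were not used. Read totals and the gene lengths used were not given, so depth was read only relative between libraries and no counting interval was given. RPKM were transformed as log2(RPKM + 1), genes reaching 1 RPKM in 5 or more of the 15 libraries were kept, and batch 4 was tested against batches 1 and 2 with limma 3.58.1 (R 4.3.3; empirical Bayes with a trend, population as block, Benjamini-Hochberg threshold 0.05). Single library values were tested by exact permutation (Python 3.11.15, scipy 1.17.1, pandas 2.3.3). The script was tested on simulated data. Positions came from GENCODE for 45142 of 45705 gene identifiers. Populations pair the libraries by label; deviations of same-population libraries correlated with a median r of 0.181 (lowest -0.0999, 15 pairs). Named genes were the 10 largest rises and 10 largest falls that passed the test, changed the same way in all 10 pairings and were above the receptor level, with Gm and Rik names passed over, the 5 largest in each direction of each interaction, Gm10800 and Gm10801, the 3 highest receptor genes, the sorting antigens and up to 4 members of each list; other genes were chosen after their values were seen. The members and lists were chosen with earlier results of these data known. Batch 3 was left out of the tests. Alternatives covered the pseudocount, filter, scaling, block, receptor bar and left-out libraries.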

Additional observations from a re-analysis of the deposited data

Results flagged for a closer look

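In 110 sets of 5 values, 14 had an end value that stood apart from the other 4 by Dixon's criterion, which chance gives for about 1 set in 20. PFMP 4 was lowest of batch 4 in the summed satellite transcripts, at 1489 RPKM, and in the number of genes above 0, at 24102. For other satellite-like predicted genes the median log2 difference was lowest in PFMP, at -7.02.

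Differences by population gave the other 11. The BNAP/GRP1 libraries had the lowest log2 difference of the 5 populations for the ribosomal proteins (median -4.85), Rps28 (-7.33), Ado (2.73), Nmt2 (2.20), Sp8 (0.88) and Tyms (0.0349). NSC had the highest for the oligodendrocyte genes (median 2.68) and Egr1 (-0.79). GRP3 had the highest median for the small structured RNAs (0.51). That median was 0 in each other population, so any other value would be flagged and the flag carries no weight. GRP3 also had the lowest value for Dlx2 (-3.02), and GRP2/MP3 the lowest for Rpl38-ps2 (-12.65).

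Batch 3 was outside the comparison. Mir8114 and Mir8112, listed at 0 in batches 1 and 2, were at 89.7 and 58.3 RPKM in the PFMP library of batch 3.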

How the results depend on the processing

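The counts of genes depended on scaling and filter. Genes higher in batch 4 numbered 18471 with no filter, 2393 with a mean of at least 5 RPKM, 2794 after median-of-ratios scaling, 1636 after quantile normalization and 2222 after subtraction of the receptor mean, and 2626 (without GRP3 4) to 5889 (without PFMP 4) with 1 library left out. Genes lower numbered 2385, 3501 and 2490 under the 3 scalings and 910 (without GRP3 4) to 1680 (without BNAP/GRP1 2) with 1 library left out. Rises above the receptor level numbered 527 after median-of-ratios scaling, 1640 without BNAP/GRP1 4 and PFMP 4 (chosen after seeing the data), 1330 at the 95th percentile, 81 at the highest receptor gene, 91 with the other silent families, 2024 when 1 library could miss the bar, and 651 (without GRP2/MP3 4) to 1432 (without BNAP/GRP1 4) with 1 library left out. Falls above it numbered 177 at the highest receptor gene and 705 (without GRP3 4) to 1448 (without BNAP/GRP1 2) with 1 left out. Batch 4 differed from batch 1 in 2030 genes and from batch 2 in 1604 with a pseudocount of 10, and in 1754 (without NSC 1) to 5363 and 1404 (without GRP3 2) to 4433 (both highest without PFMP 4) with 1 left out; batch 2 against batch 1 gave 0 to 1. The NSC interaction gave 60, 32 and 28 genes with a pseudocount of 10, quantile normalization and receptor subtraction, and 0 to 8 (without BNAP/GRP1 4) with 1 left out; it could not be fitted without NSC 4. The other interaction gave 4 with a pseudocount of 10 and 0 to 1042 (without GRP2/MP3 4). The receptor difference was 49.79 percentage points at 1 RPKM, 2.224 for the median gene (exact permutation, p = 0.01235) and 2.224 for other silent families, and 0.993 to 3.632 with a population left out; for satellites it was 0.8714 (without GRP3) to 3.583 (without PFMP). The number of genes above 0 differed by 7974 to 11460 with a population left out. Without the population block 3474 genes were higher and 1307 lower, and 8 of 73 named genes lost their call. Of those 73 genes, 56 kept their call in every alternative run for them, 17 lost it in at least 1, and 0 changed direction. The cause was not tested for these changes. Absolute depth was not known, and batch 4 was 1 batch.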
